A study of Mus musculus with 6 samples.

Results

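The 10 genes described here are effectors, kinases and close partners of the Hippo pathway. They are *Yap1*, *Wwtr1*, *Tead1*, *Tead2*, *Tead3*, *Tead4*, *Lats1*, *Lats2*, *Amotl2* and *Ankrd1*. They were chosen by symbol for their place in the pathway, with earlier results of these data known. All 10 were found among the 27179 genes of the count table. Expression was measured by bulk RNA-seq in CD34hi and CD34lo fibroblasts of the pubertal mammary gland. The cells were sorted as Lin-CD24-Pdgfrα+ from female mice aged 6 weeks, of the inbred strain given as FVB/N in the labels and FVB/NJ in the study's methods, and the labels name no treatment or allele. Each of 3 pools of 2 mice gave 1 library of each population, so there were 3 libraries per population, paired by pool, and the animals within a pool cannot be told apart. Depth lay between 28764779 and 52402410 counts per library, at which 3 counts correspond to 0.0572 to 0.104 counts per 1000000 counts (CPM), a floor for counting error only. The transcript that gave the sort its name followed the labels: *Cd34* had 634 ± 158 CPM (SD, n = 3) in CD34lo and 2571 ± 75.2 CPM (SD, n = 3) in CD34hi libraries, and the sort antigen gene *Pdgfra* was present in every library. *Cd24a*, whose protein the sort selected against, was low in all libraries, at 5.2, 5.43 and 4.56 CPM in CD34lo and 21.8, 20.7 and 14.3 CPM in CD34hi. It was higher in CD34hi (adjusted p = 0.000103), as were *Lats2* and *Ankrd1*, and its part in their differences was not tested. Of the 5 fibroblast markers of the study, *Dcn*, *Lum*, *Pdgfra*, *Col1a2* and *Igfbp5*, all were detected in every library, at a summed level between 28386 and 36429 CPM. They were not level between the populations. *Lum*, *Pdgfra* and *Col1a2* were higher in CD34lo (log2 fold change of CD34hi vs CD34lo -1.28, -0.74 and -0.69). *Igfbp5* was higher in CD34hi (3.45), and *Dcn* did not pass the test (-0.34). The part of these differences in those of the 10 genes was not tested.

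The Hippo pathway is a kinase cascade that limits organ size and reads cell contact, cell shape and matrix stiffness. In it the kinases LATS1 and LATS2 phosphorylate the co-activators YAP, encoded by *Yap1*, and TAZ, encoded by *Wwtr1*, which are then held in the cytoplasm or degraded. When they are not phosphorylated, YAP and TAZ enter the nucleus and bind the TEAD transcription factors, which recognise DNA that YAP and TAZ cannot bind alone. In fibroblasts the pathway is known for its part in mechanosensing and matrix production. Its control acts largely on proteins, which RNA-seq does not measure.

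Between the populations, the co-activator genes and 3 of the 4 *Tead* genes were higher in CD34lo, while *Lats2* and *Ankrd1* were higher in CD34hi fibroblasts. Of the 10 genes, 9 had enough counts to be tested, and 7 passed an adjusted p-value under 0.05, 5 of them higher in CD34lo and 2 higher in CD34hi. Among all 15219 genes tested, 35.6% passed, 18.7% higher in CD34lo and 16.9% higher in CD34hi. The median log2 fold change (log2FC; CD34hi vs CD34lo, so that negative values mean higher in CD34lo) was -0.42 over the 9 genes and -0.0064 over all genes tested. *Lats1* and *Amotl2* did not pass, and *Tead4* was too low to be tested. For 7 of the 9 genes, those that passed, the 3 libraries of each population did not overlap in CPM, against 50.1% of all genes tested. In bulk libraries, fewer cells that express a gene and less RNA of it per cell cannot be told apart.

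**Figure D1:**
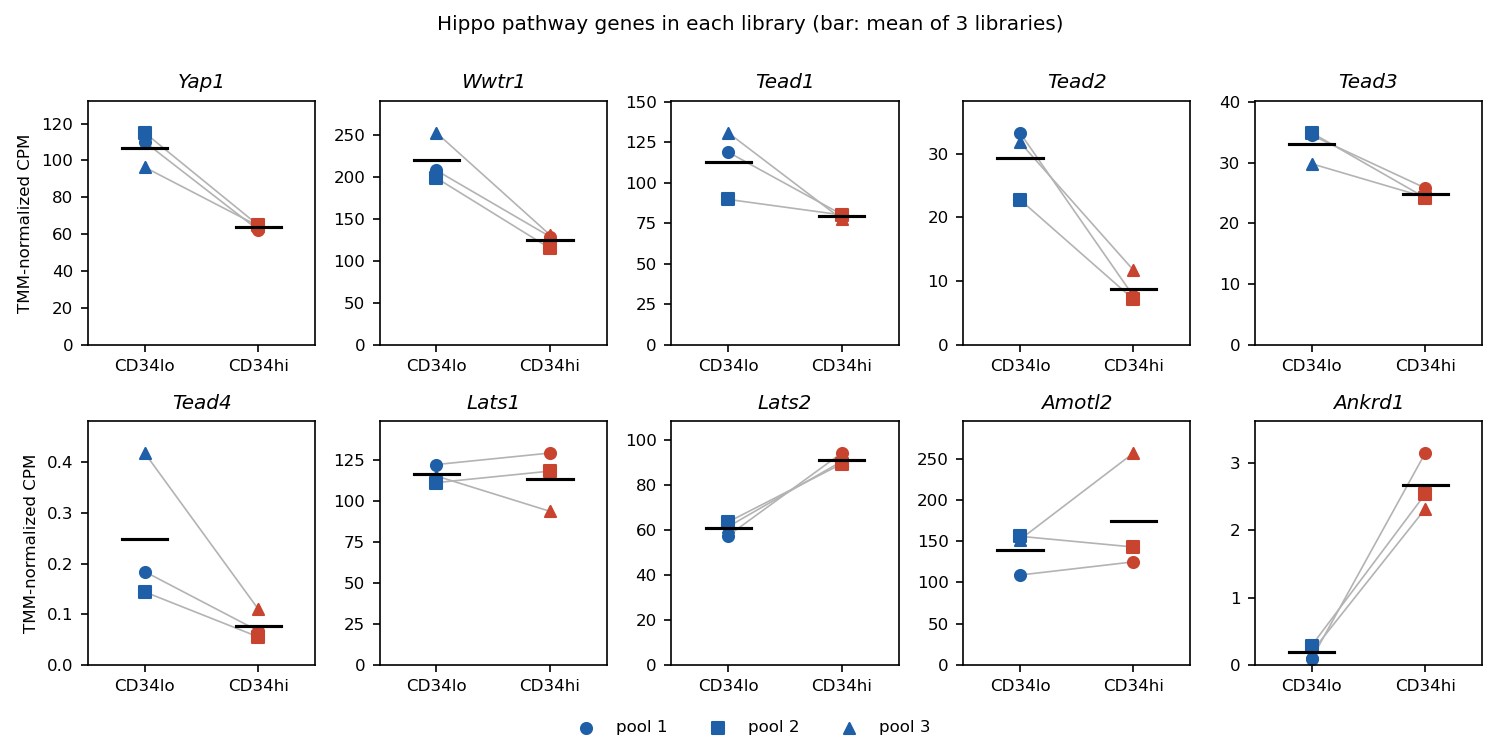
TMM-normalized CPM (linear axis from 0, a scale of its own for each gene) of the 10 genes in the 3 CD34lo libraries (blue) and the 3 CD34hi libraries (red). Symbols mark the mouse pool, grey lines join libraries of the same pool and black bars are means. The populations separate for *Yap1*, *Wwtr1*, *Tead1*, *Tead2*, *Tead3*, *Lats2* and *Ankrd1*, and overlap for *Lats1* and *Amotl2*. *Tead4* also separates, but at only 2 to 13 counts per library, and it was not tested.

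*Yap1* (gene 22601, GRCm38 chromosome 9, 7931999 to 8004596, minus strand) had 110, 115 and 96.3 CPM in the CD34lo libraries of pools 1 to 3, and 62.2, 64.8 and 64.4 CPM in the CD34hi libraries. Every CD34lo library thus lay above every CD34hi library, and the CD34hi libraries were close to each other. The mean was 1.68-fold higher in CD34lo, a log2FC of -0.75 (± 0.11 SE, adjusted p = 0.000901). *Wwtr1* (gene 97064, chromosome 3, 57455644 to 57575910, minus strand) had 208, 199 and 253 CPM in CD34lo and 129, 115 and 131 CPM in CD34hi libraries. The populations were again separate, with the CD34lo library of pool 3 highest. Its mean was 1.76-fold higher in CD34lo, a log2FC of -0.82 (± 0.13 SE, adjusted p = 0.00152). Within pools, the log2 difference between CD34hi and CD34lo ran from -0.82 to -0.58 for *Yap1* and from -0.95 to -0.69 for *Wwtr1*. Per length of transcript, *Wwtr1* was the more abundant co-activator gene in both populations, at 46.0 ± 6.08 CPM per kilobase (RPKM; SD, n = 3) in CD34lo and 26.1 ± 1.80 RPKM in CD34hi, against 25.6 ± 2.28 and 15.3 ± 0.329 RPKM for *Yap1*. The share of *Wwtr1* in the summed RPKM of the pair was 64.0% ± 4.96 in CD34lo and 63.0% ± 1.97 in CD34hi (SD, n = 3). This difference of -1.05 percentage points was smaller than the spread between libraries (exact two-sided permutation p = 0.9, with 0.1 the smallest value that 3 against 3 libraries allow), and its sign turned without some libraries, to 1.75 without CD34lo replicate 3.

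The promoters of *Yap1* and *Wwtr1* are shown because both genes were higher in CD34lo and both windows hold GGAATG, the core of the DNA element that TEAD proteins recognise. The letters were searched on both strands, as GGAATG and CATTCC, in the 250 bases before each RefSeq transcription start (GRCm38.p6). The windows lie at chr9:8004597-8004846 and chr3:57575911-57576160, both on the minus strand, and are printed 5′ to 3′ on the strand of the gene, with the motif in capitals.
Yap1: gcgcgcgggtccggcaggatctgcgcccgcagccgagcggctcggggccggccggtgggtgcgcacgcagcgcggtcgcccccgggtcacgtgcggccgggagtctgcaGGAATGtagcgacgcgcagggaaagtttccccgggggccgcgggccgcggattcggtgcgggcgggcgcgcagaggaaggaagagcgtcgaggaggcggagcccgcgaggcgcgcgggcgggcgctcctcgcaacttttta
Wwtr1: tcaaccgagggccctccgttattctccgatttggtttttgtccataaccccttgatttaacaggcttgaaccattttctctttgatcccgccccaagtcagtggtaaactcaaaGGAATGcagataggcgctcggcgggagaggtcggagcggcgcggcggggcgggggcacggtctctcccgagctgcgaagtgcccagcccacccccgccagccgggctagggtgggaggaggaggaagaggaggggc
The motif began 141 bases before the start of *Yap1* and 136 bases before that of *Wwtr1*. RefSeq gives *Wwtr1* another start, from which the distance is 170 bases. Of the 10 genes, 8 had a window and 5 of these held the motif in at least 1 window (*Yap1*, *Wwtr1*, *Tead3*, *Amotl2* and *Ankrd1*), while *Tead2*, *Lats1* and *Lats2* did not hold it. The *Tead2* window ends at 45215791, inside the gene as placed in the count table (from 45215753). The start that sets this window was not found in the transcripts searched. The same letters occurred in 13.5% of the 18458 genes of the count table with a window and in 12.6% of all 32851 windows. A match describes the letters of the window and is not evidence of binding.

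The TEAD genes encode the DNA-binding partners of YAP and TAZ. *Tead2* (gene 21677, chromosome 7, 45215753 to 45233619) had 33.3, 22.8 and 31.8 CPM in CD34lo and 7.62, 7.12 and 11.7 CPM in CD34hi libraries. The lowest CD34lo library was well above the highest CD34hi library, and *Tead2* had the largest log2FC towards CD34lo of the 9 genes tested. It was 3.32-fold higher in CD34lo, with a log2FC of -1.73 (± 0.23 SE, adjusted p = 0.000467). *Tead1* (gene 21676, chromosome 7, 112679320 to 112906805) had 119, 89.8 and 131 CPM in CD34lo and 80.5, 80.2 and 77.6 CPM in CD34hi libraries. The CD34lo library of pool 2 came close to the CD34hi libraries, and the within-pool log2 difference was -0.16 there, against -0.56 and -0.76 in the other pools. *Tead1* had a log2FC of -0.51 (± 0.15 SE, adjusted p = 0.0245). The gene overlaps an unnamed gene on the other strand with 181 counts, against 23051 for *Tead1*, in libraries made with a kit that does not mark strand. *Tead3* (gene 21678, chromosome 17, 28331671 to 28350805) had 34.5, 34.9 and 29.8 CPM in CD34lo and 25.8, 24.2 and 24.3 CPM in CD34hi libraries. These ranges did not overlap either, and the log2FC was -0.42 (± 0.11 SE, adjusted p = 0.0212). The calls of *Tead1* and *Tead3* were the least firm of the 7. In 9 refits, each without 1 pool or 1 library, the adjusted p of *Tead1* was 0.05 or more in 7, with a highest value of 0.158 without replicate 1, and passed only without replicate 2 and without CD34lo replicate 2. That of *Tead3* was 0.05 or more in 6, with a highest value of 0.201 without replicate 2, and passed without replicate 3, CD34lo replicate 3 or CD34hi replicate 3.

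*Tead4* (gene 21679, chromosome 6, 128227143 to 128300813) had 10, 4 and 13 counts in CD34lo and 3, 2 and 5 counts in CD34hi libraries. These 37 counts in all were under the filter on low counts, so a difference could not be tested at this depth. Summed over the 4 genes, the *Tead* level was 36.3 ± 4.24 RPKM in CD34lo and 20.4 ± 0.985 RPKM in CD34hi (SD, n = 3). The makeup of the family also differed between the libraries of the populations. Shares of the same sum depend on each other, so a lower share of *Tead2* raises the others together. Of the shares in this family, only that of *Tead1* was tested. *Tead2* held 37.9% ± 3.16 of the summed RPKM in CD34lo and 20.3% ± 4.80 in CD34hi, and *Tead4* held less than the other 3 genes in every library. The share of *Tead1* was 30.4%, 28.7% and 34.4% in CD34lo and 39.8%, 41.3% and 36.3% in CD34hi libraries. No CD34lo library reached a CD34hi library, and the difference of 7.96 percentage points had an exact two-sided permutation p of 0.1, the smallest possible here. *Tead3* went from 30.7% ± 5.61 in CD34lo to 40.5% ± 2.46 in CD34hi.

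**Figure D2:**
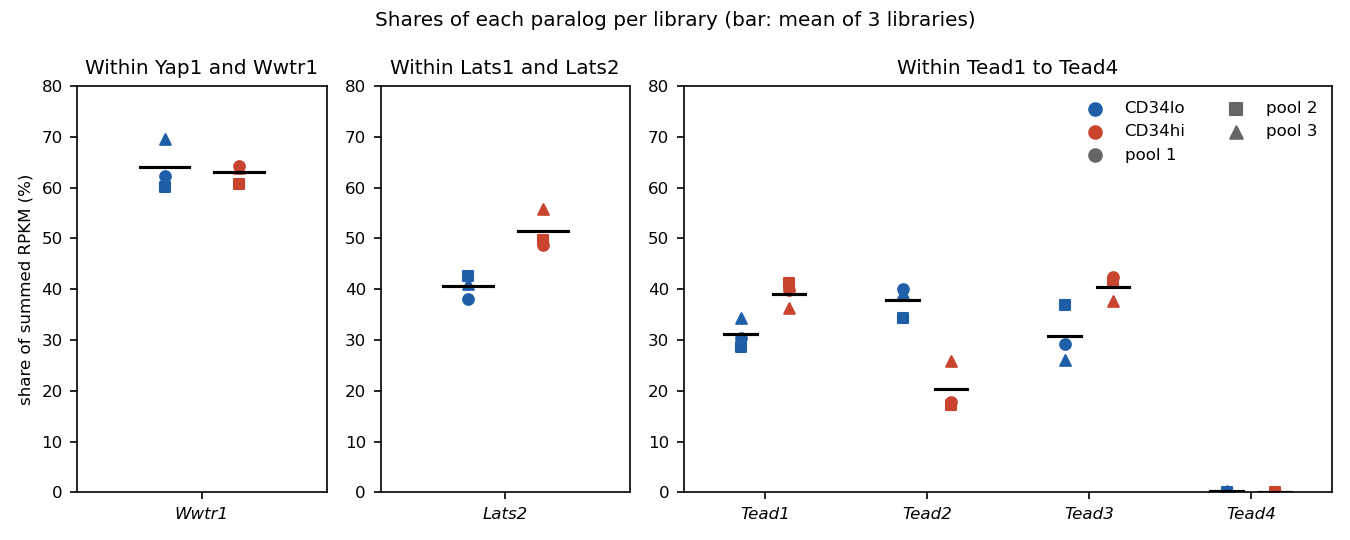
Share of each paralog in the summed RPKM of its family (per cent, linear axis), by library, for CD34lo (blue) and CD34hi (red); symbols mark the mouse pool and black bars are means. The share of *Wwtr1* overlaps between the populations, that of *Lats2* is higher in CD34hi, and that of *Tead2* is 37.9% in CD34lo and 20.3% in CD34hi.

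*Lats1* and *Lats2* encode the kinases that phosphorylate YAP and TAZ, and *Lats2* is itself commonly used as a YAP and TAZ target. *Lats2* (gene 50523, chromosome 14, 57689662 to 57746123) had 57.6, 63.7 and 61.6 CPM in CD34lo and 94.4, 89.6 and 90.7 CPM in CD34hi libraries. All CD34hi libraries lay above all CD34lo libraries, and the spread within each population was small beside the gap. It was 1.5-fold higher in CD34hi, with a log2FC of 0.59 (± 0.10 SE, adjusted p = 0.00211). *Lats1* (gene 16798, chromosome 10, 7681209 to 7716461) had 122, 111 and 115 CPM in CD34lo and 129, 118 and 93.5 CPM in CD34hi libraries, which overlapped. It was higher in CD34hi in 2 pools and lower in 1, and its log2FC of -0.03 (± 0.14 SE, adjusted p = 0.882) did not pass and had no stable sign. *Lats2* made up 38.1%, 42.6% and 41.0% of the summed RPKM of the pair in CD34lo and 48.8%, 49.7% and 55.7% in CD34hi libraries. The 3 CD34hi libraries were above the 3 CD34lo libraries, a difference of 10.8 percentage points (exact two-sided permutation p = 0.1, the smallest possible). *Lats2*, the only gene of the LATS pair that passed, was thus higher in CD34hi, and both co-activator genes were higher in CD34lo.

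*Amotl2* encodes a scaffold of the angiomotin family that binds YAP at junctions, and *Ankrd1* encodes an ankyrin repeat protein of muscle and stressed cells. Both are widely used as readouts of YAP and TAZ activity. *Ankrd1* (gene 107765, chromosome 19, 36111965 to 36119844) had 0.0922, 0.288 and 0.193 CPM in CD34lo and 3.15, 2.54 and 2.32 CPM in CD34hi libraries. It was low in all libraries, with 5, 8 and 6 counts in CD34lo against 141, 92 and 105 counts in CD34hi, and the populations did not overlap. The mean was 14.0-fold higher in CD34hi, a log2FC of 3.89 (± 0.42 SE, adjusted p = 0.000160), in all 3 pools. The size of this ratio rests on the few counts in CD34lo. *Amotl2* (gene 56332, chromosome 9, 102717804 to 102733417) had 109, 156 and 152 CPM in CD34lo and 125, 143 and 257 CPM in CD34hi libraries. The populations overlapped, and the CD34hi library of pool 3 stood above the other 5. Its log2FC of 0.33 (± 0.27 SE, adjusted p = 0.371) did not pass, and without CD34hi replicate 3 it was -0.05.

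The promoters of *Amotl2* and *Ankrd1* are shown because the windows of both hold the TEAD motif letters, although *Ankrd1* passed the test and *Amotl2* did not. They cover chr9:102717554-102717803 on the plus strand and chr19:36119845-36120094 on the minus strand of GRCm38.p6, from RefSeq, again with GGAATG or CATTCC in capitals.
Amotl2: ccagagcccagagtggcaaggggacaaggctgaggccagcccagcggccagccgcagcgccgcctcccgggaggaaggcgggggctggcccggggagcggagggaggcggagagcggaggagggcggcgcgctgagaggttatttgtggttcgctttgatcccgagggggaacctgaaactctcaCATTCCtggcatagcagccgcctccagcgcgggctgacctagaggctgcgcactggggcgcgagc
Ankrd1: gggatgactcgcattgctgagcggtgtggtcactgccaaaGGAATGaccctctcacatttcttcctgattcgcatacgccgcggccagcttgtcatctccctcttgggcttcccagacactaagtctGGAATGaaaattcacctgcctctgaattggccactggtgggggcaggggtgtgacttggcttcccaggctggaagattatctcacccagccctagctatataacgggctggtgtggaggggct
The window of *Ankrd1* held the motif at 210 and 123 bases before the start, and that of *Amotl2* held it at 65 bases, on the other strand.

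Per length, the order of the 10 genes differed between the populations. In CD34lo it ran *Wwtr1*, *Amotl2*, *Yap1*, *Lats1*, *Tead2*, *Tead1*, *Tead3*, *Lats2*, *Ankrd1* and *Tead4*, from 46.0 RPKM down to 0.0809 RPKM. The range of *Wwtr1* (41.5 to 52.9 RPKM) was apart from that of *Amotl2*, and *Yap1* was apart from *Lats1*, while *Lats1*, *Tead2*, *Tead1*, *Tead3* and *Lats2*, between 16.1 and 11 RPKM on average, each overlapped with the next. In CD34hi the order ran *Amotl2*, *Wwtr1*, *Lats2*, *Lats1*, *Yap1*, *Tead3*, *Tead1*, *Tead2*, *Ankrd1* and *Tead4*. *Lats2*, *Lats1* and *Yap1* each overlapped with the next there, at 16.5, 15.7 and 15.3 RPKM, as did *Tead3* and *Tead1*, at 8.25 and 7.97 RPKM. *Lats2* thus held place 8 in CD34lo and place 3 in CD34hi, and *Yap1* places 3 and 5.

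Upstream of LATS1 and LATS2 lie the kinases encoded by *Stk3* and *Stk4*, their adaptors, the MAP4K and TAO kinases, the cadherins FAT4 and DCHS1 and junctional scaffolds. Of 34 such genes, all were tested; 8 were higher in CD34lo, 5 were higher in CD34hi and 21 did not pass, with a median log2FC of -0.00. The share that passed, 13 of 34, stood against 35.6% of all genes tested. The largest changes by the naming rule were all towards CD34lo. *Map4k1*, a kinase gene known mainly from blood cells, had 2.67, 0.503 and 3.09 CPM in CD34lo and 0.201, 0.276 and 0.0662 CPM in CD34hi libraries, a log2FC of -3.55 (± 0.73 SE, adjusted p = 0.00542; 0.0586 without replicate 3). *Amot*, which encodes the founding angiomotin, had 50.1 ± 13.0 CPM in CD34lo and 14.3 ± 3.07 CPM in CD34hi (SD, n = 3), a log2FC of -1.81 (adjusted p = 0.000291). *Amot* thus passed towards CD34lo, while its paralogs *Amotl1* and *Amotl2* did not pass, with positive log2FC values of 0.32 and 0.33. *Ajuba*, which encodes a LIM protein that restrains LATS kinases, had a log2FC of -1.23 (adjusted p = 0.00176), and *Dchs1*, the gene of a large cadherin, one of -1.14 (adjusted p = 0.000462). *Frmd6*, a FERM domain gene with the highest level per length in the list, had 445 ± 50.5 CPM in CD34lo and 248 ± 34.0 CPM in CD34hi, a log2FC of -0.84 (adjusted p = 0.00245). The other upstream genes higher in CD34lo were *Map4k4*, *Map4k3* and *Ptpn14*, with log2FC values of -0.75, -0.60 and -0.48 (adjusted p = 0.00363, 0.00211 and 0.0151). *Map4k4* had 373 CPM in CD34lo and 222 CPM in CD34hi on average. *Map4k2* and *Map4k5* did not pass, with log2FC values of -0.51 and -0.07.

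The 5 upstream genes higher in CD34hi were *Fat4*, *Taok3*, *Mob1a*, *Wtip* and *Sav1*. *Fat4* encodes the cadherin that pairs with DCHS1 on neighbouring cells, and it went the other way from *Dchs1*. It had 56.8, 119 and 85.7 CPM in CD34lo and 166, 138 and 234 CPM in CD34hi libraries, with no overlap, a log2FC of 1.04 (± 0.28 SE, adjusted p = 0.0185). *Mob1a* and *Sav1* encode adaptors of the core kinases and had log2FC values of 0.53 and 0.47 (adjusted p = 0.00637 and 0.0316). *Stk3* and *Stk4*, the core kinases above LATS1 and LATS2, did not pass, with log2FC values of 0.22 and -0.10 (adjusted p = 0.145 and 0.553). Without replicate 1 or without replicate 2, the number of upstream genes that passed was 8 in place of 13. Those higher in CD34hi were 1 without replicate 1 and 2 without replicate 2, in place of 5. Those higher in CD34lo were 7 and 6, in place of 8.

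**Figure D3:**
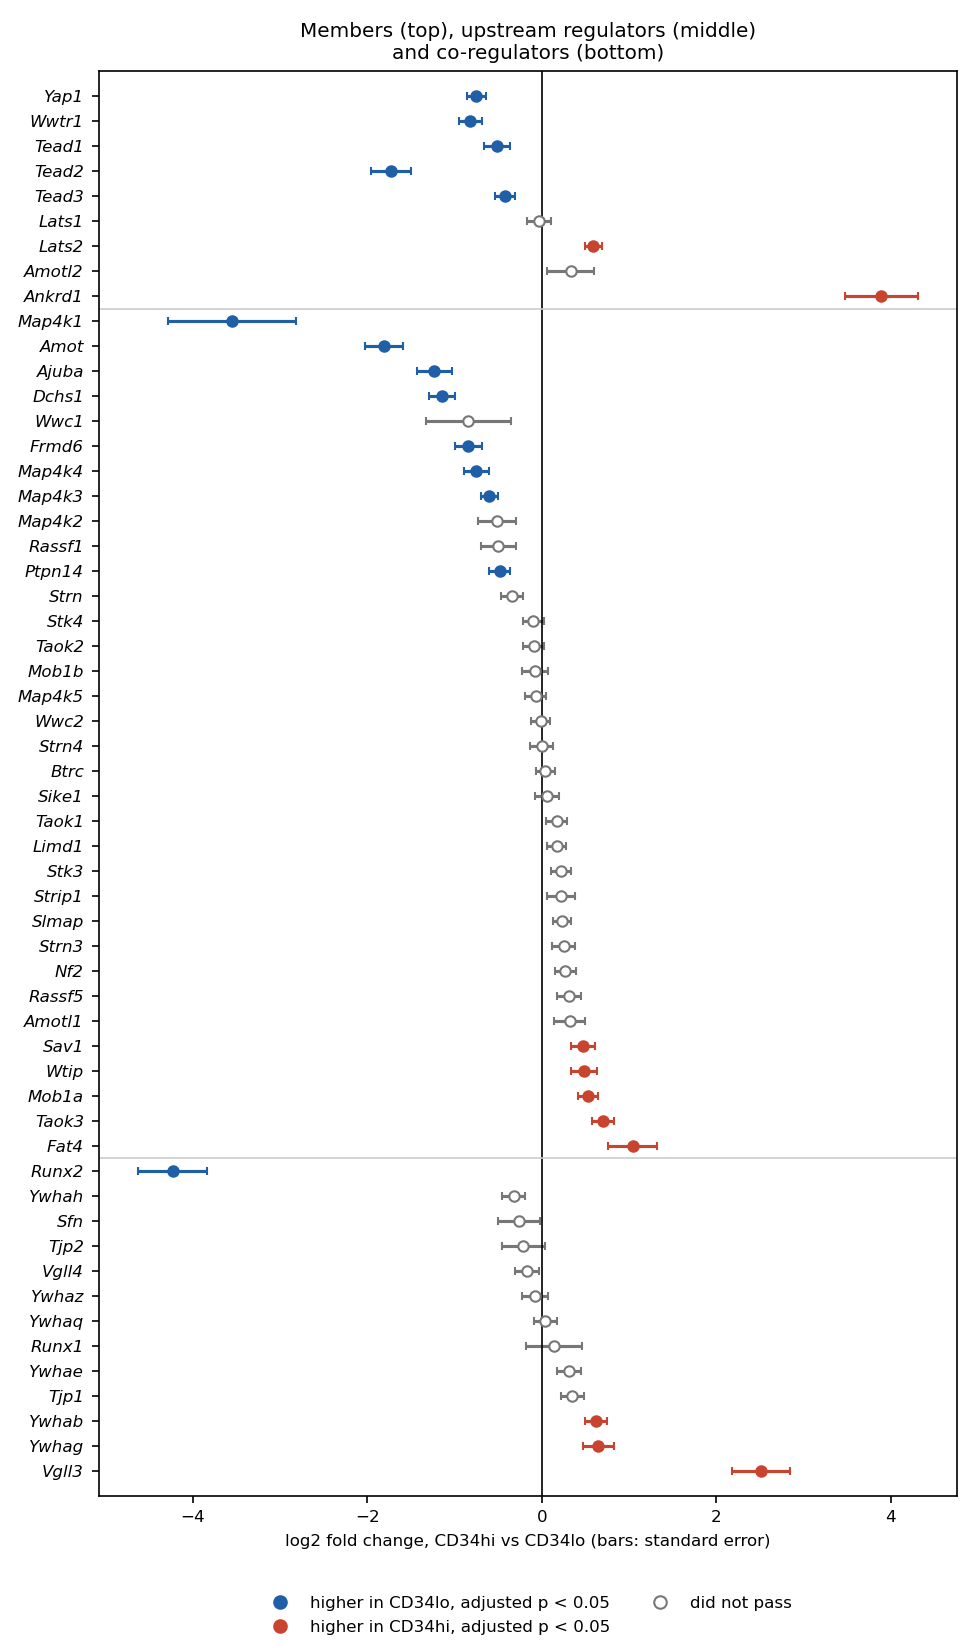
Log2FC of CD34hi vs CD34lo (linear axis, bars are standard errors) for the 9 tested members, 34 upstream genes and 13 tested co-regulators, sorted by value within the lower groups. Filled points passed an adjusted p-value under 0.05 and open points did not; *Runx2* and *Map4k1* lie farthest towards CD34lo and *Ankrd1* and *Vgll3* farthest towards CD34hi.

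Co-regulators act beside YAP, TAZ and TEAD in the nucleus or hold YAP and TAZ in the cytoplasm. Of 15 listed genes, 13 were tested; 3 were higher in CD34hi, 1 was higher in CD34lo and 9 did not pass, with a median log2FC of 0.04. The share that passed, 4 of 13, was near the 35.6% of all genes tested. *Vgll3* encodes a vestigial-like protein that binds TEAD proteins in place of YAP and TAZ. It had 23.1, 30.9 and 43.0 CPM in CD34lo and 124, 151 and 275 CPM in CD34hi libraries, and the lowest CD34hi library was above the highest CD34lo library. The log2FC of *Vgll3* was 2.51 (± 0.33 SE, adjusted p = 0.000495), opposite in sign to those of *Tead1*, *Tead2* and *Tead3*. *Vgll1* and *Vgll2* were too low to test, *Vgll2* with 0 counts in all libraries, and *Vgll4* did not pass the test, with a log2FC of -0.17. *Runx2*, the gene of an osteogenic transcription factor that binds YAP and TAZ, had 118, 52.7 and 125 CPM in CD34lo and 7.38, 3.31 and 4.94 CPM in CD34hi libraries. It was 18.9-fold higher in CD34lo, a log2FC of -4.23 (± 0.40 SE, adjusted p = 7.49e-05). The gene overlaps *Supt3*, which had 1219 counts against 12410 for *Runx2*. *Ywhab* and *Ywhag* encode phosphoserine-binding proteins that hold phosphorylated YAP in the cytoplasm, and they were higher in CD34hi with log2FC values of 0.62 and 0.65 (adjusted p = 0.0069 and 0.0195). Both calls were lost without replicate 2 (adjusted p = 0.096 and 0.158), and that of *Ywhag* also without CD34lo replicate 2, CD34lo replicate 3, CD34hi replicate 1 or CD34hi replicate 2 (0.065, 0.0658, 0.0589 and 0.0634). *Ywhae*, the most abundant of the list per length, did not pass, with a log2FC of 0.31. The other listed genes of this protein family, *Ywhaq*, *Ywhah*, *Ywhaz* and *Sfn*, did not pass either (log2FC 0.04, -0.32, -0.08 and -0.26).

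The transcripts commonly used as readouts of YAP and TAZ moved in both directions. Of 22 such genes, which include *Amotl2*, *Lats2* and *Ankrd1*, 9 were higher in CD34hi, 7 were higher in CD34lo and 6 did not pass, with a median log2FC of 0.18. The share that passed, 16 of 22, stood against 35.6% of all genes tested, and each direction against 16.9% and 18.7%. The list was chosen with earlier results of these data known, so this comparison is a description. *Ccn2* and *Ccn1* encode matricellular proteins and are the most used of these readouts. *Ccn2* had 125, 131 and 131 CPM in CD34lo and 58.1, 54.8 and 56.9 CPM in CD34hi libraries, which were far apart beside the spread within each population. Its log2FC was -1.19 (± 0.10 SE, adjusted p = 4.09e-05). *Ccn1*, the most abundant gene of the list per length, had 1824, 1881 and 1640 CPM in CD34lo and 1863, 2053 and 1960 CPM in CD34hi libraries, which overlapped. *Ccn1* did not pass, with a log2FC of 0.14 (± 0.14 SE, adjusted p = 0.479).

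*F3*, the gene of tissue factor, and *Dock5*, the gene of an exchange factor for Rac, went with *Ccn2* towards CD34lo, with log2FC values of -3.51 and -3.24 (adjusted p = 2.56e-06 and 7.64e-05). *F3* had 230, 279 and 278 CPM in CD34lo and 24.7, 18.9 and 25.3 CPM in CD34hi libraries. *Tgfb2*, the gene of a TGFβ ligand, went with *Ankrd1* towards CD34hi, at 10.6, 15.5 and 11.4 CPM in CD34lo and 126, 136 and 102 CPM in CD34hi libraries. Its log2FC was 3.29 (± 0.19 SE, adjusted p = 6.71e-06). *Axl*, the gene of a receptor tyrosine kinase, was also higher in CD34hi, at 2332 ± 109 CPM against 607 ± 38.7 CPM in CD34lo (SD, n = 3), a log2FC of 1.94 (adjusted p = 1.79e-05). The other genes higher in CD34hi were *Myof*, *Lats2*, *Crim1*, *Foxf2*, *Nt5e* and *Nuak2*, and the others higher in CD34lo were *Fjx1*, *Ccdc80*, *Ptpn14* and *Arhgef17*. A group of 17 immediate early and heat shock genes was read beside these targets. Of that group 13 were higher in CD34lo, and the other 4, *Jund*, *Egr1*, *Atf3* and *Dusp1*, did not pass. Of all genes tested, 18.7% were higher in CD34lo. The group of 17 genes summed to 46293 to 61035 CPM in CD34lo and 25810 to 30072 CPM in CD34hi libraries, with a median log2FC of -1.22. Its part in the differences of the target genes was not tested.

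**Figure D4:**
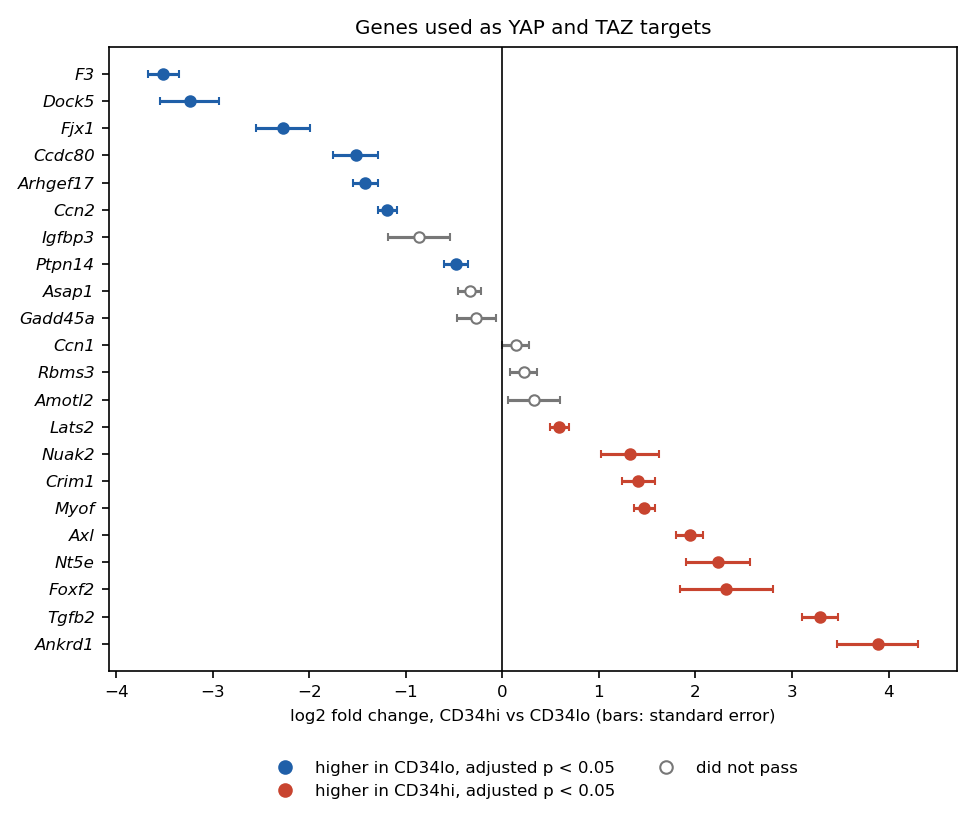
Log2FC of CD34hi vs CD34lo (linear axis, bars are standard errors) for 22 genes used as YAP and TAZ targets, sorted by value. Filled points passed an adjusted p-value under 0.05 and open points did not; 7 genes lie towards CD34lo (blue) and 9 towards CD34hi (red), with *Ccn2* and *Ankrd1* on opposite sides.

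Markers of other cell types were low beside the fibroblast markers, but several moved with the populations, as some fibroblast markers also did. The 6 epithelial markers summed to 68.8 to 69.7 CPM in CD34lo and 34.7 to 41.1 CPM in CD34hi, and 2 of them, *Acta2* and *Itga6*, were higher in CD34lo. The other 4, *Epcam*, *Krt8*, *Krt18* and *Krt14*, did not pass (median log2FC of the list -0.08), and *Acta2* alone went from 33.3 CPM in CD34lo to 3.24 CPM in CD34hi. The 2 pericyte markers summed to 7.36 to 11.5 CPM and 1.59 to 2.46 CPM, and both were higher in CD34lo. The 4 muscle markers summed to 3.50 to 3.88 CPM and 1.27 to 1.57 CPM, with *Des* higher in CD34lo, *Acta1* not passing and *Myf5* and *Myog* too low to test. *Acta2*, *Itga6*, *Des* and both pericyte markers thus moved in the same direction as *Yap1*, *Wwtr1* and *Tead2*. The 5 macrophage markers summed to 27.3 to 48.6 CPM in CD34lo and 2.57 to 3.20 CPM in CD34hi, most of it in CD34lo from *Fcgr2b*, the 1 marker of the list that passed. The 2 keratinocyte markers went with *Ankrd1* and *Lats2*, with summed levels of 3.6 to 7.12 CPM in CD34lo and 14.3 to 19.9 CPM in CD34hi. Of these, *Krtdap* had a log2FC of 5.95 and *Krt10* one of 0.77, the latter passing in only 8 of 18 alternatives. The 4 endothelial markers summed to 33.3 to 55.2 CPM in CD34lo and 50.1 to 94.9 CPM in CD34hi, and *Kdr* was higher in CD34hi, while *Pecam1* and *Cdh5* were higher in CD34lo. Among Schwann cell markers, *Mbp* was higher in CD34hi (log2FC 1.88), *Col20a1* was higher in CD34lo (log2FC -0.92) and *Sox10* did not pass. The part of these cell types in the differences of the 10 genes was not tested.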

How the data were processed

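Per the labels and the study's methods, the authors prepared TruSeq RNA v2 libraries from at least 10 ng of RNA, sequenced them on a NextSeq 500 and used Rsubread for alignment (GRCm38/mm10) and gene counts. The deposited counts are whole numbers per gene and library, with gene coordinates and lengths; strand setting, annotation and treatment of multi-mapping reads are not given in the sources used here. Symbols came from RefSeq (25275 of 27179 genes matched).

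Tests used edgeR 4.0.16 under R 4.3.3 (filterByExpr by population, 15219 genes; TMM; quasi-likelihood test; Benjamini-Hochberg over all genes tested, threshold 0.05), checked on simulated counts. Adjusted p-values in the text are from this edgeR fit. CPM and RPKM use TMM-scaled library sizes and the deposited lengths; log2 CPM used a prior count of 2. The SE of a log2FC is its size over the root of the F statistic. Shares were compared by exact permutation with scipy 1.17.1. The common biological coefficient of variation was 19.7%. Libraries of a population differed by more than sampling noise (lowest chi-square over its degrees of freedom 23.1).

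Libraries with the same number came from the same mouse pool, which pairs them; across genes, their deviations from the population means had r of 0.279, 0.0844 and 0.243. Alternatives were RLE and upper-quartile normalization, limma-voom (limma 3.58.1; the method of the study), DESeq2 1.42.0, no filter, at least 10 counts in every library, the pool as a replicate block, thinning to 28764779 counts, and each pool or library left out. The genes and lists were chosen with earlier results of these data known. Named from the lists were the 4 largest changes that passed with the same direction in all pools and the gene highest per length, plus *Ccn1* and *Ccn2*, and the most abundant gene of each other-cell-type list. Other listed genes were named after their values were seen. Promoter windows are those of RefSeq on GRCm38.p6. The summed level of the Schwann cell list is not reported here.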

Additional observations from a re-analysis of the deposited data

How the results depend on the processing

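The 9 tested genes gave 161 comparisons with alternatives, of which 144 kept the direction and the side of the threshold, 13 lost the call (*Tead1* and *Tead3*, described above) and 4 reversed. The reversals were in *Lats1*, at 0.09 without replicate 3, 0.03 without CD34lo replicate 1 and 0.10 without CD34hi replicate 3, with -0.10 and 0.10 as the extremes of all refits without 1 pool or library, and in *Amotl2*, at -0.05 without CD34hi replicate 3, with extremes of -0.05 and 0.56. *Ankrd1* had no estimate under the minimum of 10 counts per library, and passed in the other 17 alternatives with a log2 fold change between 3.35 and 4.33. *Yap1*, *Wwtr1*, *Tead2* and *Lats2* passed in all 18.

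In the refits without 1 pool or library, the number of the 10 genes that passed was 5 or 6, against 7. For all genes it was between 3468 and 5236, against 5411, with 3468 without replicate 1. Of the upstream genes between 8 and 14 passed, and of the co-regulators between 2 and 5, with 2 without replicate 2. The *Wwtr1* share difference ranged from -2.95 to 1.75 percentage points, and was 1.3 without replicate 3, 1.75 without CD34lo replicate 3 and 0.084 without CD34hi replicate 2. The cause of these changes was not tested.

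With the replicate block in edgeR, 6161 of all genes and 7 of the 10 genes passed, with log2 fold changes of -0.74 for *Yap1* and 0.59 for *Lats2*; the block changed no call of a gene named by the rule. It gave 15 upstream genes, 5 co-regulators and 17 targets. In a sign-flip permutation of the within-pool differences, the replicate block for the shares, p was 1 for *Wwtr1* and 0.25, the smallest that 3 pools allow, for *Lats2* and *Tead1*. At this depth *Tead4* was the only one of the 10 genes too low to test.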

Other observations

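The genes whose log2 CPM followed that of *Yap1* most closely over the 6 libraries were *Aspg*, *Prpf40b* and *Prkar2b*, with a Pearson's r of 0.997, 0.997 and 0.996. For *Wwtr1* they were *Sort1*, *Nipal4* and *Nt5c3b*, with 0.996, 0.996 and 0.995. *Yap1* and *Wwtr1* had an r of 0.884 with each other, and 2205 tested genes followed *Yap1* at least as closely as *Wwtr1* did. These values are descriptions over 6 points that share the difference between the populations.

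With the mouse pool as a block, 4 further pathway or target genes passed that had not passed without it. These were *Rassf1*, *Strn*, *Tjp1* and *Igfbp3*, with log2 fold changes of -0.49, -0.35, 0.36 and -0.91 (adjusted p = 0.00536, 0.0372, 0.0407 and 0.00178 from edgeR's quasi-likelihood test).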
